A study of Mus musculus with 6 samples.

Results

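Interleukin 2 (IL-2) signalling was examined in regulatory T cells (Treg) through 10 genes of the IL-2 receptor and STAT5 pathway. They were taken by symbol from the deposited count table and comprise the receptor chains Il2ra, Il2rb and Il2rg, the kinases Jak1 and Jak3, the transcription factors Stat5a and Stat5b, and the feedback inhibitors Socs1, Socs3 and Cish. All 10 were present among the 29199 genes of the table, and all 10 were among the 18321 genes that passed the filter on low counts.

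Total RNA was sequenced from 6 libraries of splenic Treg, 3 from recipients of wild-type (WT) conventional CD4+ T cells (Tconv) and 3 from recipients of Tconv that lack HP1α (KO), a protein of heterochromatin. The recipients of both groups were irradiated C57BL/6J (B6) or CD45.1+ B6 mice given B6 and semi-allogeneic B6D2F1 bone marrow, and Treg were recovered 3 weeks later. The Treg of both groups were WT cells from B6 Foxp3-Thy1.1 mice, in which the Thy1.1 marker reports Foxp3. Before transfer they had been sorted as CD25+ cells, expanded for 3 days with anti-CD3/CD28 beads in 500 IU/mL human IL-2 and 0.1 ng/mL human TGFβ1, and kept for 5 to 7 further days without beads. After the graft they were sorted again by Thy1.1 and CD45 and H-2K alleles, without CD25. Only the Tconv differed, and the HP1α deletion in their donors came from a CMV-cre transgene, which acts in all tissues, so it was not limited to T cells. The WT and mutant mice were sex-matched littermates 6 to 12 weeks old. Their line was kept on a mixed genetic background, only in part C57BL/6. The authors state that they worked with males for sequencing. Neither the labels nor the methods state that each library came from a separate animal, so p-values measure the spread between these libraries, which may be technical. CD25 is the protein of Il2ra, so the Treg of both groups had been chosen by the product of a gene examined here before they were cultured and transferred.

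IL-2 is bound by a receptor made of CD25, the β chain (Il2rb) and the common γ chain (Il2rg), and CD25 raises its affinity. JAK1, which associates with the β chain, and JAK3, which associates with the γ chain, then phosphorylate STAT5A and STAT5B, which enter the nucleus as dimers. Treg make little IL-2 of their own, depend on IL-2 from other cells for survival and for Foxp3 expression, and carry much CD25. STAT5 also switches on Cish, Socs1 and Socs3, whose products dampen cytokine receptor signalling.

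The libraries held 87421755 to 119078882 counts and 22573 to 24626 detected genes. Treg markers were expressed in all 6, with the 5 listed genes summing to 3284 to 4096 CPM (counts scaled to a common library total), against 5.83 to 8.85 CPM for the CD8 T cell genes and 14.2 to 24.4 CPM for the B cell genes. Replicate 3 of Treg with WT Tconv stood apart in genes of red cells (5341 CPM, against 365 to 678 CPM in the others) and neutrophils (1818 CPM, against 41.0 to 225 CPM). Of the neutrophil genes 7 of 7, and of the red cell genes 5 of 5, were highest in that library. Replicate 2 of Treg with HP1α KO Tconv stood apart in mitochondrially encoded RNA, with 0.972% of its counts against 2.52% to 2.88% in the others, and in the nuclear RNA Malat1, with 0.679% against 1.06% to 1.49%. The part of either library's composition in the results below was not tested beyond leaving that library out.

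The comparison asked whether Treg injected together with HP1α KO Tconv carried other levels of these transcripts than Treg injected together with WT Tconv. Of the 10 genes, 0 had an adjusted p-value under 0.05 in the quasi-likelihood test of edgeR, and 0 had an unadjusted one under 0.05. Among all 18321 genes the shares with such p-values were 0.0% and 14.5%. DESeq2 also called 0 of the 10 genes, with adjusted p-values from 0.455 to 0.982. Of all 12097 genes with a DESeq2 adjusted p-value, 1.31% were called higher and 3.03% lower by that tool. In Treg with HP1α KO Tconv 4 of the genes were at higher and 6 at lower fitted levels, with log2 fold changes from -0.21 to 0.14 and a median of -0.02, beside a median of -0.01 over all genes. The 95% intervals of the 10 genes reached at most 1.32-fold the level with WT Tconv and at least 0.645 of it. In bulk RNA, fewer cells of a type and less RNA per cell cannot be told apart.

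**Figure D1:**
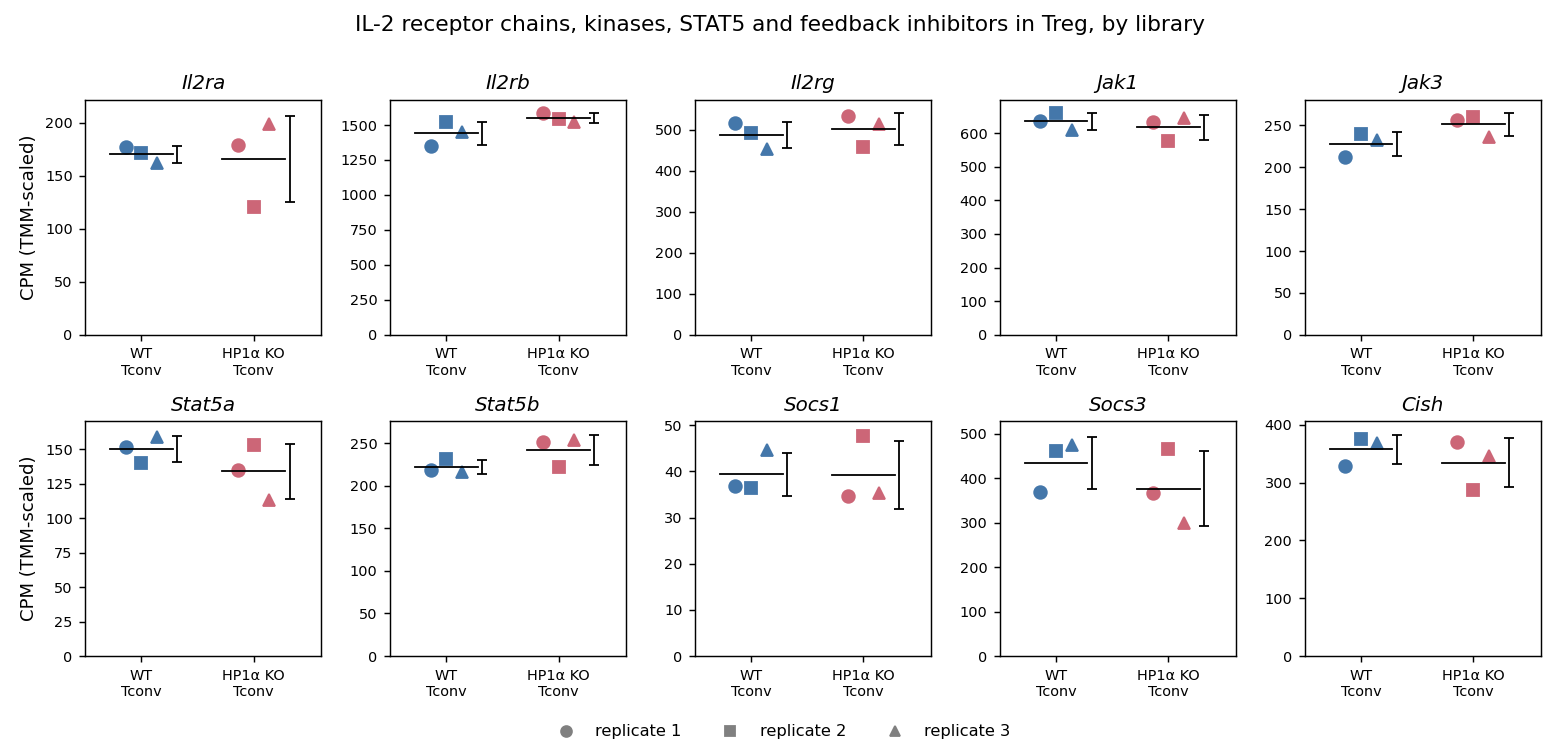
Level of each of the 10 genes in CPM (vertical axes, from 0), by Tconv genotype. Points are single libraries with the replicate number as symbol, horizontal lines are group means and bars are the SD (n = 3). The groups overlap for every gene except Il2rb, and replicate 2 with HP1α KO Tconv is the lowest library for Il2ra, Jak1 and Cish.

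**Figure D2:**
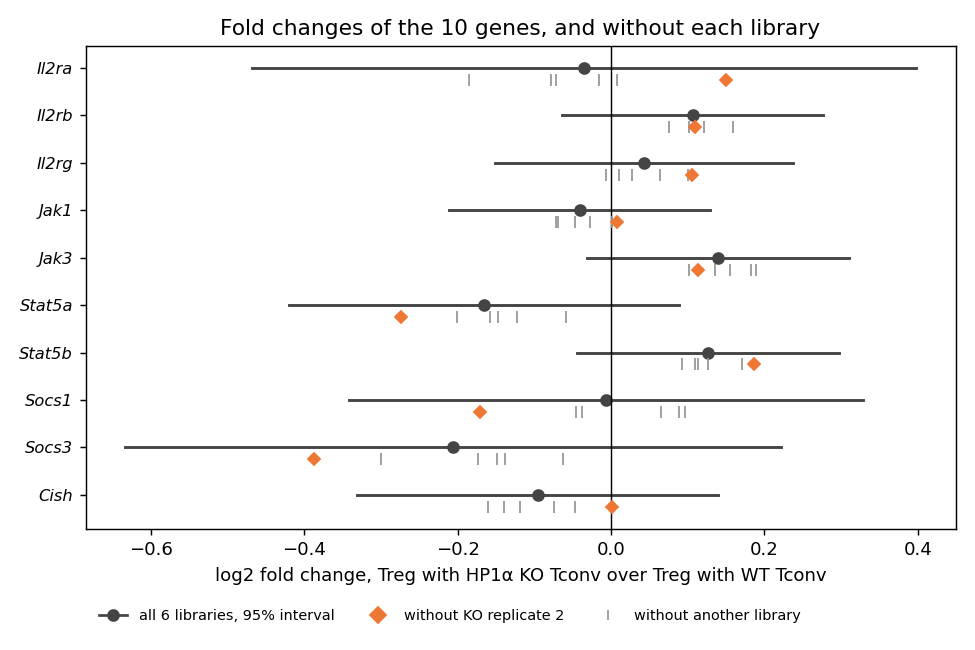
Log2 fold change of each gene, HP1α KO over WT Tconv, with its 95% interval from edgeR (circles and lines), and the same value with 1 library left out (diamonds for replicate 2 with HP1α KO Tconv, ticks for the other libraries). Every interval includes 0, and the diamond of Il2ra lies at 0.15 where the circle lies at -0.04.

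Levels of different genes were compared as CPM per kilobase (kb) of the canonical transcript, averaged over the 6 libraries. The β chain and the common γ chain, which Treg share with other lymphocytes, came highest, Il2rb at 357 ± 19.8 (SD, n = 6) and Il2rg at 296 ± 19.8 CPM per kb. Socs3 (152 ± 27.1), Jak1 (111 ± 5.35) and Cish (94.8 ± 9.11) followed. Stat5b (45.6 ± 3.27), Jak3 (38.2 ± 2.82), Il2ra (38.1 ± 5.95) and Stat5a (35.9 ± 4.19) formed a lower group, and Socs1 came last, at 10.6 to 14.6 CPM per kb over the libraries. Among neighbours in this order, the ranges over libraries overlapped between Socs3 and Jak1, between Jak3 and Il2ra and between Il2ra and Stat5a. Their order also changed between libraries, so these are not ordered beyond their spread. The ranges of Jak1 and Cish overlapped too, but by canonical length Jak1 was above Cish in every library. The order was the same with the merged exon length of each gene. In every library the transcript of CD25, by which the cells had been sorted, was thus at a lower level per length than those of its partner chains.

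**Figure D3:**
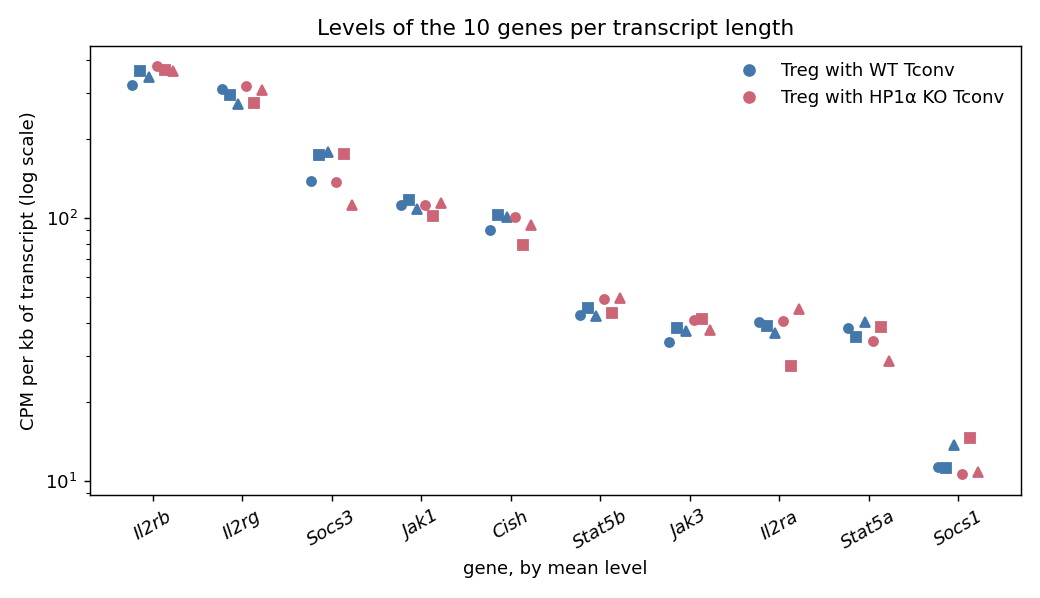
Level of each gene in CPM per kb of canonical transcript on a log axis, ordered by mean level, with 1 point per library (symbols give the replicate number, colours the Tconv genotype). Il2rb and Il2rg lie above all other genes, and Socs1 lies below all others.

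The receptor chains were taken in turn. Il2ra (ENSMUSG00000026770, GRCm39, chr2:11647618-11698004, plus strand) was at 177, 172 and 161 CPM in the 3 libraries with WT Tconv and at 179, 121 and 199 CPM in those with HP1α KO Tconv. The HP1α KO group thus held both the highest and the lowest library, and the WT values lay between them. Its fitted log2 difference was -0.04 (standard error, SE, of 0.179, edgeR adjusted p = 0.946). Without replicate 2 with HP1α KO Tconv, the library poor in mitochondrial RNA, it was 0.15 (edgeR adjusted p = 0.345), and its sign also turned without replicate 1 with WT Tconv. The Il2ra transcript of 4412 bases holds a stretch, aligned over 146 to 168 bases, that is at least 90% identical to parts of other transcripts, so a small share of its reads is uncertain.

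Il2rb (ENSMUSG00000068227, chr15:78363456-78395566, minus strand) was at 1353, 1520 and 1449 CPM with WT Tconv and at 1587, 1542 and 1522 CPM with HP1α KO Tconv. Every library with HP1α KO Tconv was above every library with WT Tconv, though the nearest values were 1522 and 1520 CPM, and Il2rb was the sole member without overlap where 23.0% of all genes had none. This gave a log2 fold change of 0.11 (SE 0.0743, edgeR adjusted p = 0.55). Il2rg (ENSMUSG00000031304, chrX:100307984-100311861, minus strand), whose chain also serves the receptors for IL-4, IL-7, IL-9, IL-15 and IL-21, was at 517, 493 and 453 CPM with WT Tconv and at 534, 459 and 514 CPM with HP1α KO Tconv. The groups overlapped, and the log2 fold change of 0.04 had an edgeR adjusted p-value of 0.842. Without replicate 3 with WT Tconv, the library with red cell and neutrophil RNA, it was -0.01.

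Of the kinases, Jak1 (ENSMUSG00000028530, chr4:101008838-101122487, minus strand) was at 636, 661 and 610 CPM with WT Tconv and at 634, 575 and 644 CPM with HP1α KO Tconv. The groups overlapped, with replicate 2 with HP1α KO Tconv below every WT library, and the log2 fold change was -0.04 (SE 0.0741, edgeR adjusted p = 0.828). Jak3 (ENSMUSG00000031805, chr8:72123007-72143225, plus strand), whose expression is largely limited to blood cells, was at 212, 239 and 233 CPM with WT Tconv and at 257, 261 and 236 CPM with HP1α KO Tconv. Only replicate 3 with HP1α KO Tconv fell within the range of the WT group. Its log2 fold change of 0.14 (SE 0.0745) had the smallest p-value of the 10 genes, an edgeR adjusted 0.441. Jak3 shares 8.08% of its exonic bases with Insl3 on the same strand, so the split of reads between them is uncertain, but Insl3 held 111 to 174 counts where Jak3 held 20366 to 27258.

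The STAT5 genes lie next to each other on chromosome 11 and are transcribed in opposite directions, Stat5a at chr11:100750177-100776065 on the plus strand (ENSMUSG00000004043) and Stat5b at chr11:100671556-100741589 on the minus strand (ENSMUSG00000020919). Their canonical transcripts are 90.2% identical over 2354 aligned bases, and 21.3% of the words of 31 bases in Stat5a also occur in Stat5b. The longest run that both share without a difference spans exons 7 to 9 of Stat5a (within chr11:100764849-100765809) and exons 6 to 8 of Stat5b (within chr11:100688567-100689527). It is coding in both over all of its 324 bases. Its middle piece of 152 bases, which lies in exon 8 of Stat5a (chr11:100765165-100765316) and exon 7 of Stat5b (chr11:100689060-100689211), is shown from the GRCm39 genome because reads inside it fit either gene.
Stat5a and Stat5b: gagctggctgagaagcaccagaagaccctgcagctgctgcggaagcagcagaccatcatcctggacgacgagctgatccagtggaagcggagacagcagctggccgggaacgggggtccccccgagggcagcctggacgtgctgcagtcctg
Of the 961 genomic bases that the whole run spans in each gene, introns included, 954 were the same in both. The estimated counts divide such reads between the genes by a model, so the split of STAT5 into A and B rests on the remaining sequence.

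Stat5a was at 151, 140 and 159 CPM with WT Tconv and at 135, 153 and 113 CPM with HP1α KO Tconv, with replicate 3 of the latter lowest. On the log2 scale the difference was -0.17 (SE 0.111, edgeR adjusted p = 0.534). Stat5b was at 218, 232 and 216 CPM with WT Tconv and at 251, 222 and 254 CPM with HP1α KO Tconv, so that 2 of 3 libraries with HP1α KO Tconv lay above the WT range. The fitted fold change (log2) was 0.13 (SE 0.0744, edgeR adjusted p = 0.481). The fitted differences of the STAT5 genes thus had opposite signs, and each grew without replicate 2 with HP1α KO Tconv, to -0.27 for Stat5a and 0.19 for Stat5b (edgeR adjusted p = 0.214 and 0.199). Without replicate 3 with HP1α KO Tconv each shrank instead, to -0.0585 for Stat5a and 0.0926 for Stat5b.

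The sum of Stat5a and Stat5b, formed after their values had been seen, spanned 367 to 386 CPM over the 6 libraries. It was 370, 372 and 375 CPM with WT Tconv and 386, 375 and 367 CPM with HP1α KO Tconv. Stat5b made up 59.0%, 62.3% and 57.7% of the STAT5 counts with WT Tconv and 65.1%, 59.2% and 69.1% with HP1α KO Tconv. The highest shares were in replicates 1 and 3 with HP1α KO Tconv, and replicate 2 lay within the WT range.

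Of the feedback inhibitors, Cish (ENSMUSG00000032578, chr9:107173225-107179983, plus strand), which encodes the inhibitor CIS, was at 329, 375 and 368 CPM with WT Tconv and at 370, 288 and 345 CPM with HP1α KO Tconv. As for Il2ra, replicate 2 with HP1α KO Tconv was the lowest library and the others overlapped between groups. The log2 fold change came to -0.10 (SE 0.103, edgeR adjusted p = 0.701), and without that library it was 0.00.

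Socs3 (ENSMUSG00000053113, chr11:117856905-117860898, minus strand), best known as an inhibitor of receptors that use gp130, was at 368, 461 and 475 CPM with WT Tconv and at 366, 466 and 299 CPM with HP1α KO Tconv. The lowest value was that of replicate 3 with HP1α KO Tconv, and the remaining libraries of both groups ran over the same range. Fitted over all libraries, the log2 fold change was -0.21 (SE 0.178, edgeR adjusted p = 0.639). Without replicate 2 with HP1α KO Tconv it was -0.39 (edgeR adjusted p = 0.29), whereas leaving out replicate 3 of that group gave -0.0623. Socs1 (ENSMUSG00000038037, chr16:10600104-10603875, minus strand), which blocks JAK kinases directly, was at 36.9, 36.4 and 44.7 CPM with WT Tconv and at 34.6, 47.6 and 35.2 CPM with HP1α KO Tconv. Its highest libraries were replicate 3 with WT Tconv and replicate 2 with HP1α KO Tconv, those that stood apart in composition. The log2 fold change was -0.01 (edgeR adjusted p = 0.989), and its sign changed with the scaling, to 0.03 when libraries were scaled by total counts only.

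STAT dimers bind the palindrome TTCNNNGAA, where N is any base, which reads the same on both strands. It was searched in the RefSeq promoters of GRCm38.p6, 250 bases before to 50 bases after a start, of which 8.3% of 32851 hold at least 1 match and 0.457% at least 2. Among the members with a promoter in the table, Cish held 2 matches, Socs3 held 1, and Il2ra, Il2rg, Jak1, Jak3, Stat5a, Stat5b and Socs1 held 0. The stretches of 30 bases around the matches are shown because they are the ones where this motif lies beside genes induced by STAT5, with the motif in capitals.
Cish: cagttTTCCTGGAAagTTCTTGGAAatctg
Socs3: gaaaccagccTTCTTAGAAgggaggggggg
By exact match to GRCm39 the Cish stretch lies at chr9:107173853-107173882 on the plus strand, in a non-coding part of an exon in 2 of 5 annotated transcripts, the canonical one included. The Socs3 stretch lies at chr11:117860327-117860356 on the minus strand, upstream of the canonical transcript and in a non-coding exon of 1 of 8 transcripts. A match is a description of the sequence, and no binding was measured here.

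**Figure D4:**
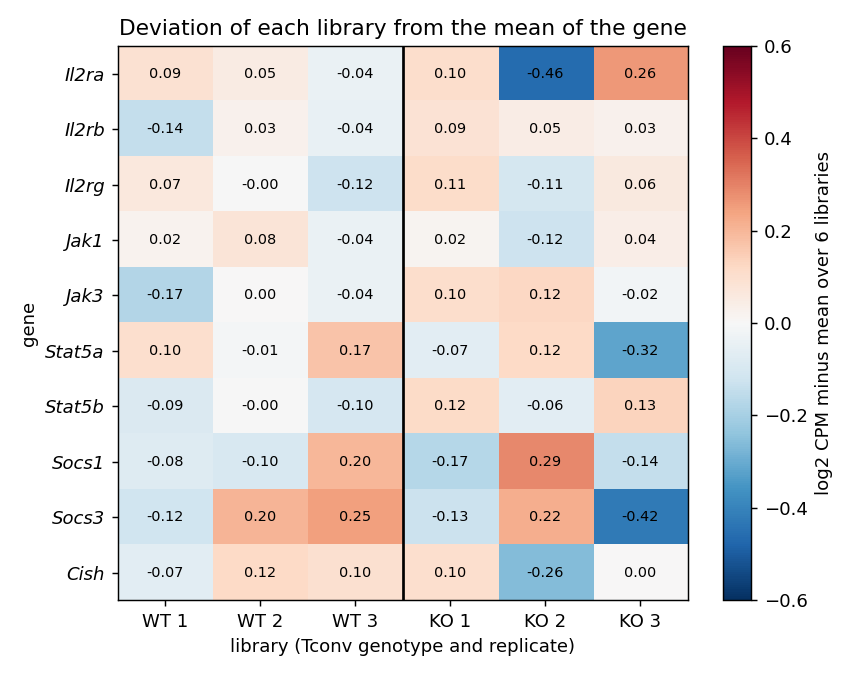
Deviation of each library from the mean of each gene, as log2 CPM minus the mean over the 6 libraries (colour and printed value), with columns for the libraries by Tconv genotype and replicate. Replicate 2 with HP1α KO Tconv is at -0.46 for Il2ra and -0.26 for Cish, and replicate 3 with HP1α KO Tconv is at -0.42 for Socs3 and -0.32 for Stat5a.

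The spread between libraries was set beside the means. The SD of log2 CPM was larger among the libraries with HP1α KO Tconv than among those with WT Tconv for 8 of the 10 genes. The share over all genes is not given here. This count, and those of highest or lowest libraries below, thus have no background and are not traits particular to these genes. The coefficient of variation of Il2ra was 4.65% with WT Tconv and 24.4% with HP1α KO Tconv, while that of Il2rb was 5.82% and 2.17%. With HP1α KO Tconv the Il2ra values were 179, 121 and 199 CPM, with replicate 2 farthest from the other libraries of its group. Replicate 2 with HP1α KO Tconv was the highest or lowest of the 6 libraries for 5 of the 10 genes, as replicate 3 with HP1α KO Tconv and replicate 3 with WT Tconv each were for 4. Il2ra, Jak1 and Cish were lowest there, and Jak3 and Socs1 were highest there. Foxp3, which IL-2 maintains through STAT5, was also lowest in replicate 2 and highest in replicate 3 with HP1α KO Tconv, at 200, 222 and 209 CPM with WT Tconv and 228, 154 and 252 CPM with HP1α KO Tconv. After centring and division by its SD, the root mean square difference of log2 CPM between Foxp3 and Il2ra was 0.279 SD, which ranked Foxp3 at place 219 among 13248 genes, and within the WT group the order of the libraries differed between the genes.

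The genes most like Il2ra over the 6 libraries by this measure were Herc2 (0.0657 SD), Ddx42 (0.0742 SD), Prpf8 (0.0797 SD), Usp28 (0.0922 SD) and Ppp1r13b (0.108 SD). Each of these was lowest in replicate 2 with HP1α KO Tconv, as Il2ra was, for example Ddx42 at 93.7 CPM there against 123 to 143 CPM in the others. Those most like Cish were Plekhm1 (0.127 SD), Rab31 (0.162 SD), Gcc1 (0.171 SD), Zfp687 (0.172 SD) and A830035O19Rik (0.184 SD), also lowest in that library. The genes of both lists were chosen by likeness over these same libraries, so a shared lowest library follows from the choice.

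Ratios of members within a library do not depend on the scaling of the libraries, and 7 were compared between the groups by two-sided exact permutation tests, for which 3 against 3 libraries give a smallest p-value of 0.1. The smallest p-value adjusted over the 7 exact tests was 0.467. The counts of Cish over Stat5b were in the ratios 1.51, 1.62 and 1.70 with WT Tconv and 1.47, 1.30 and 1.36 with HP1α KO Tconv. Every library with HP1α KO Tconv was below every library with WT Tconv, the sole ratio without overlap, with a difference of -0.23 on the log2 scale and an exact permutation p-value of 0.1, the smallest it can take. The counts of Stat5b over Stat5a were in the ratios 1.44, 1.65 and 1.36 with WT Tconv and 1.86, 1.45 and 2.24 with HP1α KO Tconv, a difference of 0.30 with an exact permutation p-value of 0.2. Jak3 over Jak1 differed by 0.18, with an exact permutation p-value of 0.2, and Socs3 over Stat5b by -0.35, with one of 0.3. Jak3 over Jak1 differed by 0.10 when replicate 2 with HP1α KO Tconv was left out. Without replicate 3 with HP1α KO Tconv the difference was 0.15 for Stat5b over Stat5a and -0.15 for Socs3 over Stat5b, whereas leaving out replicate 2 of that group gave 0.46 and -0.57. The other ratios, Il2ra over Il2rg, Il2rb over Il2rg and Socs1 over Stat5b, had exact permutation p-values from 0.6 to 0.7.

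The pathway was then followed through 73 further listed genes, of which 72 were tested, Il9 having 4 counts in all. None had an edgeR adjusted p-value under 0.05. The groups did not overlap for 24 (33.3%), where 23.0% of all genes did not overlap. Unadjusted, 6 genes at higher and 14 at lower levels with HP1α KO Tconv had a p-value under 0.05, where 6.98% of all genes had one at higher and 7.52% at lower levels. Of the 67 genes for which DESeq2 gave an adjusted p-value, it called 1 higher and 6 lower, beside 1.31% and 3.03% of all genes.

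Of the common γ chain cytokines and receptors, 1 of 10 (10.0%, beside 14.5% of all genes) had an unadjusted p-value under 0.05, at lower levels. This was Il21, a cytokine of helper T cells, at 560, 513 and 934 counts with WT Tconv and 253, 491 and 184 counts with HP1α KO Tconv. All libraries with HP1α KO Tconv were below those with WT Tconv, and the log2 fold change of -0.97 had an adjusted p of 0.274 (edgeR) and 0.0232 (DESeq2). Its unadjusted edgeR p-value was 0.0596 when replicate 3 with WT Tconv was left out and 0.0852 when replicate 1 with HP1α KO Tconv was. The log2 fold changes in these fits were -0.77 and -0.851, in that order. Il2 itself was at 46, 71 and 45 counts with WT Tconv and at 42, 29 and 120 counts with HP1α KO Tconv, with a log2 fold change of 0.40 (edgeR adjusted p = 0.786) that was -0.50 without replicate 3 with HP1α KO Tconv. The genes of other cytokine receptors had log2 fold changes of 0.03 for Il4ra, 0.09 for Il7r and 0.06 for Il15ra and edgeR adjusted p-values of 0.884, 0.673 and 0.79. With 1 library left out or DESeq2 in place of edgeR, the values ran from 0.0376 to 0.193 for Il7r and from 0.0066 to 0.123 for Il15ra.

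Among the other kinases and STATs, 1 of 7 genes (14.3%, beside 14.5% of all genes) had an unadjusted p-value under 0.05. This was Stat4, which relays IL-12, with a log2 fold change of 0.20 (edgeR adjusted p = 0.324). Stat3, which IL-6 and IL-21 use, was at a log2 fold change of -0.07 (edgeR adjusted p = 0.667). Of the 14 other inhibitors, 2 had an unadjusted p-value under 0.05 at higher and 4 at lower levels. Both directions together made up 42.9%, beside 14.5% of all genes. Those at higher levels were Pias4 and Sh2b3, each with a log2 fold change of 0.23 and edgeR adjusted p-values of 0.322 and 0.343. Among those at lower levels were Socs6 (-0.22), Ptpn11 (-0.17) and Pias2 (-0.15), with edgeR adjusted p-values of 0.242, 0.33 and 0.316. Socs2, itself a STAT5 target, was at a log2 fold change of 0.07 and the phosphatase gene Ptpn2 at -0.03 (edgeR adjusted p = 0.693 and 0.877). Leaving out replicate 3 with HP1α KO Tconv gave 0.147 for Sh2b3, 0.0159 for Socs2 and -0.0386 for Stat3, and Stat4, Pias4, Sh2b3, Socs6, Ptpn11 and Pias2 each lost their unadjusted p-value under 0.05 when some single library was left out.

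In the PI3K and MAPK arm, which IL-2 also engages, 1 of 14 genes had an unadjusted p-value under 0.05 at higher levels, beside 6.98% of all genes. This was Pik3cd, the PI3K catalytic subunit of lymphocytes, at 388, 455 and 413 CPM with WT Tconv and 488, 513 and 502 CPM with HP1α KO Tconv. Every library with HP1α KO Tconv was above every library with WT Tconv, and the log2 fold change of 0.26 had an adjusted p of 0.229 (edgeR) and 0.0832 (DESeq2).

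Genes listed as targets of STAT5 came last. The list does not state whether STAT5 raises or lowers each gene, so counts of higher and lower targets do not measure STAT5 activity. Of the 27, 10 (37.0%, beside 14.5% of all genes) had an unadjusted p-value under 0.05, 2 at higher and 8 at lower levels in Treg with HP1α KO Tconv. The median log2 fold change was -0.11 beside -0.01 over all genes. Without 1 library this median ran from -0.1632 (no replicate 2 with HP1α KO Tconv) to -0.0425 (no replicate 1 of that group). None of the targets passed in edgeR after adjustment, and DESeq2 called 1 higher and 5 lower, beside 1.31% and 3.03% of all genes. The gene called higher was Osm, the cytokine oncostatin M, at 18.2, 18.7 and 19.8 CPM with WT Tconv and 23.9, 24.2 and 24.3 CPM with HP1α KO Tconv. Every library with HP1α KO Tconv was higher, and the log2 fold change of 0.35 had an adjusted p of 0.209 (edgeR) and 0.0229 (DESeq2). Bcl2, which protects T cells from apoptosis, was at 62.2, 58.9 and 60.4 CPM with WT Tconv and 68.2, 77.8 and 75.7 CPM with HP1α KO Tconv, which is 0.29 on the log2 scale, with an adjusted p of 0.209 (edgeR) and 0.0535 (DESeq2).

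The 5 genes called lower were Il10, Ctla4, Dusp5, Nfil3 and Cdkn1a. Il10, an inhibitory cytokine, was at 174, 205 and 174 CPM with WT Tconv and 143, 144 and 97.1 CPM with HP1α KO Tconv. Ctla4, which takes CD80 and CD86 from antigen-presenting cells, was at 1246, 1349 and 1112 CPM with WT Tconv and 1028, 1018 and 798 CPM with HP1α KO Tconv. For both, the groups did not overlap and replicate 3 with HP1α KO Tconv was lowest, with DESeq2 adjusted p-values of 0.018 and 0.0414. Dusp5, which encodes a phosphatase of ERK, was at -0.37 on the log2 scale with a DESeq2 adjusted p-value of 0.037. Nfil3 (-0.63) and the cell cycle inhibitor Cdkn1a (-0.71), singled out after their values were seen, had DESeq2 adjusted p-values of 0.00801 and 0.00932. In edgeR the adjusted p-values of these 5 genes ranged from 0.22 to 0.284.

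The DESeq2 fit was repeated without each of the 2 libraries that stood apart in composition, settings added with the results in view. Without replicate 3 with WT Tconv, 0 of the 27 target genes were called lower and Osm alone was called higher. The calls over all genes with an adjusted p-value went from 526 of 12097 to 179 of 14548. The log2 fold changes without that library, fitted in edgeR, were -0.57 for Il10, -0.45 for Ctla4, -0.36 for Dusp5, -0.56 for Nfil3 and -0.62 for Cdkn1a. Of these 5 genes all but Cdkn1a kept an unadjusted p-value under 0.05 there. Leaving out replicate 2 with WT Tconv instead took the unadjusted edgeR p-value to 0.0554 for Il10 and Ctla4 and to 0.0538 for Cdkn1a. The log2 fold changes in that fit were -0.43 for Il10, -0.30 for Ctla4 and -0.72 for Cdkn1a. Without replicate 3 with HP1α KO Tconv, edgeR gave -0.36 for Il10, -0.27 for Ctla4 and -0.26 for Dusp5. Nfil3 was at -0.44 and Cdkn1a at -0.48 in that fit. All of these were smaller in size than with all libraries, and each gene kept an unadjusted edgeR p-value under 0.05. Without replicate 2 with HP1α KO Tconv, DESeq2 called 7 of the 27 targets lower and 2 higher, and 1413 of 12548 genes over all. Of the 27 targets, Foxp3, Ctla4, Ikzf2 and Tnfrsf18 also serve as markers of Treg, so a difference in them is not independent of the makeup of the sample.

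Other well known targets were not called by either tool. For Foxp3 the fit gave a log2 fold change of 0.00 (edgeR adjusted p = 0.994), and its sign changed without replicate 1 with WT Tconv and without replicate 1 or 3 with HP1α KO Tconv, while without replicate 2 of that group it was 0.19 with an unadjusted edgeR p-value of 0.0292. Pim1, a survival kinase, was at 1606, 1634 and 1665 CPM with WT Tconv and 1534, 1446 and 1132 CPM with HP1α KO Tconv, without overlap, with a log2 fold change of -0.25 (edgeR adjusted p = 0.354). Myc (0.26), the cyclin gene Ccnd2 (-0.05) and the repressor gene Bcl6 (-0.32) had edgeR adjusted p-values of 0.465, 0.824 and 0.287. Leaving out replicate 3 with HP1α KO Tconv gave -0.13 for Pim1 and 0.0867 for Myc, and Bcl6 lost its unadjusted p-value under 0.05 in 4 of the 6 fits without 1 library.

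**Figure D5:**
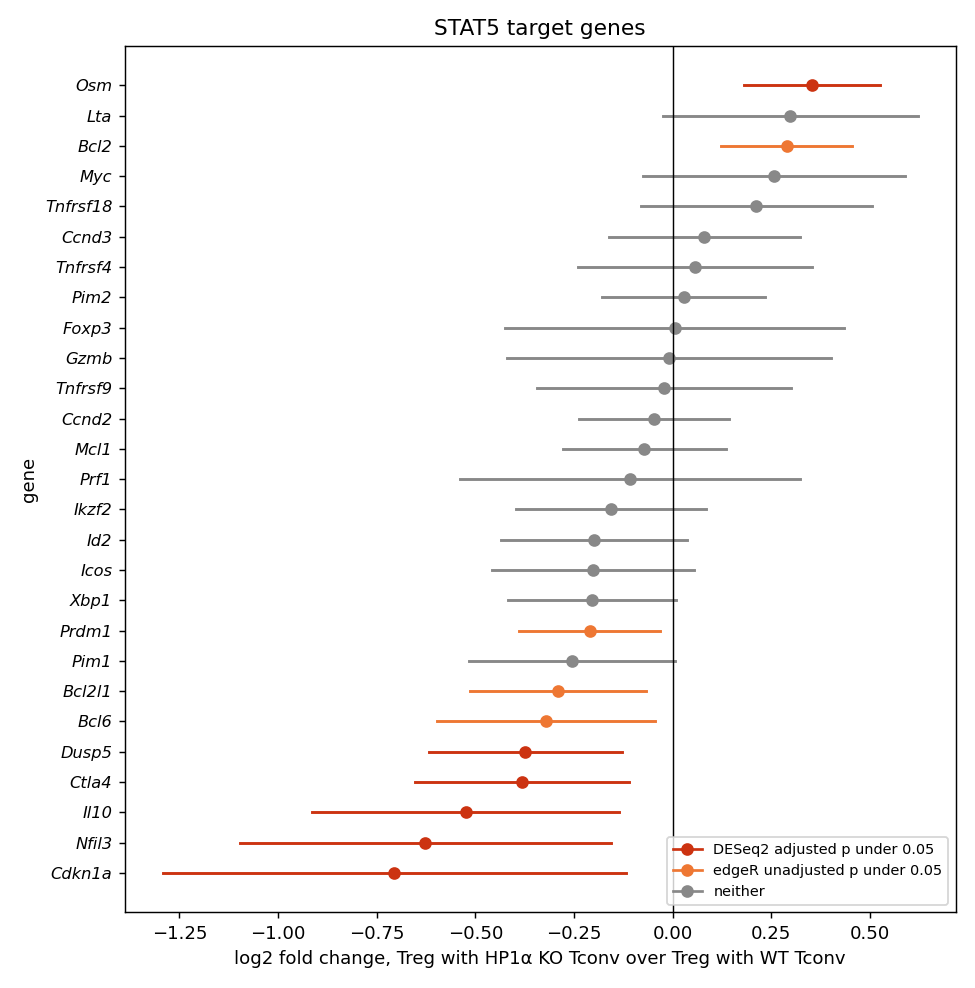
Log2 fold change, HP1α KO over WT Tconv, of the 27 STAT5 target genes with 95% intervals from edgeR. Red marks genes with a DESeq2 adjusted p-value under 0.05, orange those with an edgeR unadjusted p-value under 0.05, and grey the rest. Of the genes, 18 lie below 0 and 9 above, and Cdkn1a, Nfil3 and Il10 lie lowest.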

How the data were processed

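The authors trimmed the reads of stranded total RNA libraries, aligned them with STAR to GRCm39 and estimated expression per gene with Salmon. The deposited table holds their estimated counts, as whole numbers without normalization. All genes were tested with edgeR version 4.0.16 (quasi-likelihood F-test, legacy method, robust) in R version 4.3.3, with TMM scaling, filterByExpr, group as the sole term and Benjamini-Hochberg adjustment over 18321 genes. CPM uses TMM-scaled totals, except for marker lists and composition, which use raw totals. Standard errors were derived from the log2 fold change and F. The members and lists were chosen with earlier results of these data known. All members were named. Of the pathway list, 13 genes were named in any case, with up to 3 per role and direction of smallest p-value and, for Il2ra and Cish, the 5 most alike in pattern. Alternatives were DESeq2 version 1.42.0 (independent filtering at 0.05), limma-voom (limma version 3.58.1), other scalings, filters, blocks and left-out libraries. The fits were tested on simulated data, and the outcome is not given here. Each library counted as 1 replicate. Same-group libraries differed beyond counting noise, which does not show whether they came from separate animals. Gene positions are those of a GENCODE annotation on GRCm39 newer than that of the authors, which holds 28854 of the identifiers. A gene of the pathway list is not reported here.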

Additional observations from a re-analysis of the deposited data

How the results depend on the processing

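With DESeq2 526 genes had an adjusted p-value under 0.05, with upper quartile scaling 1, without a filter beyond 1 count 38, and without 1 library 0 to 2, where the edgeR fit gave 0 (2656 at an unadjusted p-value under 0.05). The replicate block gave 1 and changed no call of a member. Same-numbered libraries did not pair: their deviations correlated at -0.04, 0.18 and 0.12, and not every library correlated best with its own number. Over 16 alternatives 0 members passed adjustment, with a smallest adjusted p-value of 0.199 over all tools, and Il2rb, Jak3, Stat5a, Stat5b and Socs3 kept their direction. Members at an unadjusted p-value under 0.05 in edgeR numbered 2 with total counts only and 0 to 3 without 1 library, the 3 (Stat5a, Stat5b and Socs3) without replicate 2 with HP1α KO Tconv. Over all genes 2780 of 18321 had one with total counts only, and 3087 of 18799 (16.4%) without replicate 2 with HP1α KO Tconv. Members without overlap numbered 3 with total counts only (Il2rb, Jak3 and Stat5b). The share of all genes without overlap under that scaling is not given here, so this count has no background. Without 1 library the log2 fold changes ranged from -0.18 to 0.15 for Il2ra, -0.00684 to 0.105 for Il2rg, -0.0712 to 0.00828 for Jak1, -0.17 to 0.10 for Socs1, -0.161 to 0.00131 for Cish, -0.50 to 0.77 for Il2, -0.017 to 0.0885 for Il4ra, -0.0746 to 0.00719 for Ptpn2, -0.14 to 0.19 for Foxp3 and -0.0945 to 0.0251 for Ccnd2. That of Socs1 was 0.0179 with upper quartile scaling and 0.0337 with total counts only. The ratio differences ranged from -0.24 to 0.0419 for Il2ra over Il2rg and from -0.0226 to 0.12 for Il2rb over Il2rg, and those of the other ratios kept their sign. STAT5 targets at an unadjusted p-value under 0.05 numbered 6 to 16 without 1 library, where the full fit gave 10. The full fit gave 2656 such genes among all 18321. The targets numbered 6 without replicate 2 with WT Tconv, where 2069 of all 18837 genes had such a p-value. They numbered 16 without replicate 2 with HP1α KO Tconv, where 3087 of all 18799 genes (16.4%) had one. In these fits the count over all genes moved in the same direction as that of the targets. Without replicate 3 with HP1α KO Tconv it did not. There 1960 of all 18915 genes had such a p-value, fewer than in the full fit, while the targets still numbered 10. DESeq2 called 1 target without replicate 3 with WT Tconv, beside 179 of 14548 genes over all. With all libraries it had called 6, beside 526 of 12097. The counts without overlap under total counts only and the STAT5 target counts without 1 library were added with the results in view. The cause of these shifts was not tested. With 3111 or more counts per member and library, the spread between libraries and not depth limited precision.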
